A study of Saccharomyces cerevisiae with 15 samples.

Results

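Trehalose metabolism in budding yeast rests on 7 genes, and their mRNA levels were followed across 5 groups of cells. The genes were taken by name from 6692 yeast features in a table of RNA-sequencing fragment counts. They encode the 4 subunits of the trehalose synthase complex (TPS1, TPS2, TPS3 and TSL1) and the 3 trehalases (NTH1, NTH2 and ATH1). Trehalose is a glucose disaccharide that yeast stores as a reserve and that protects proteins and membranes during heat, drying and starvation. Tps1 joins UDP-glucose and glucose 6-phosphate into trehalose 6-phosphate, Tps2 removes the phosphate, and Tps3 and Tsl1 are related regulatory subunits. Nth1 is the main neutral trehalase of the cytosol, Nth2 is its paralog, and Ath1 is the acid trehalase that breaks down trehalose outside the cytosol.

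All cells were of the BY4741 background (MATa his3∆1 leu2∆ met15∆ ura3∆), grown at 30 °C to mid-log phase in medium without isoleucine and valine. Sulfometuron (SM) blocks the synthesis of those amino acids and so induces the transcription factor Gcn4. The groups of 3 libraries each were spt3∆::kanMX4 with SM, spt8∆::kanMX4 with SM, gcn5∆::kanMX4 with SM, wild type (WT) with SM, and WT without SM, with SM given at 1 µg/ml for 25 min. Spt3 and Spt8 belong to the module of the coactivator SAGA that contacts TATA-binding protein, whereas Gcn5 acetylates histones within SAGA. The labels list 1 strain per deletion and hold no deletion strain without SM, and the sources used here do not say whether the 3 libraries of a group come from separate cultures. The p-values therefore measure only the spread between these libraries, which may be technical. In bulk RNA, fewer expressing cells and less RNA per cell cannot be told apart.

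Libraries held 24.8 to 45.7 M yeast counts, and any of the 7 genes had 2429 to 101745 raw counts in any library, so counting error is small beside the spread between replicates. Levels are counts divided by a factor from synthetic spike-in RNAs (ERCC), which were added per amount of total RNA, and then by coding length in kb. A second scaling, TMM, takes most genes as unchanged. It is given for the 7 genes where a call differs, and for only part of the other pathway genes. SPT3 had 1 to 3 raw counts in spt3∆ libraries, against 711 to 1019 in WT with SM. SPT8 had 11 to 17 in spt8∆ libraries, against 957 to 1221, and GCN5 12 to 29 in gcn5∆ libraries, against 3326 to 4274. Of the mating-type markers, the a-cell genes STE2, MFA2 and MFA1 had 34148 to 69339, 9148 to 13745 and 1721 to 8217 raw counts per library, and the alpha-factor gene MF(ALPHA)1 had 40 to 162. The alpha-cell genes, MF(ALPHA)1 included, were higher with SM. MF(ALPHA)1 had 66 to 162 counts in libraries with SM, against 40 to 59 without. STE3 had 1250 to 3094 counts in libraries with SM, against 491 to 725 without, and MF(ALPHA)2 88 to 243, against 18 to 22. In gcn5∆ STE3 had 1250 to 1744 raw counts and MFA1 1721 to 2424. Raw counts are not divided by gene length, so they do not compare the levels of different genes. The part of these mating-type genes in the results was not tested. LEU2 and MET15 are deleted in the parent strain. Yet library 1 of WT without SM held 70 and 82 counts of them, where every other library held 6 or fewer. By spike-ins none of the 7 genes was called for SM in WT, with or without that library. The TMM fit, which does hold calls for SM in WT, was not repeated without it. Library 3 of gcn5∆ stood apart from its group, with a chi-square per degree of freedom over all features of 101 and 74.8 against libraries 1 and 2, compared with 16.2 between those 2. It also had 43 M yeast counts per unit of spike-in, against 30.3 and 29.4 M in the other 2, and its part in the results is given by values without it. The library names fall into 2 numbered sets, with spt3∆ and WT in one and spt8∆ and gcn5∆ in the other, so spt8∆ or gcn5∆ and the set cannot be told apart in a comparison with WT or spt3∆.

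The bases upstream of 3 of the genes are shown because the 3 differ in their fold changes across the deletion strains. TSL1 was lowest without Spt3, TPS1 was lowest without Gcn5, and NTH2 changed least of the 3 against WT without Gcn5. Each run covers the bases from 250 to 71 before the start codon on the gene's strand, from the RefSeq R64 assembly (sacCer3). The runs are chrXIII:70374-70553 on the plus strand for TSL1, chrII:490463-490642 on the minus strand for TPS1 and chrII:241354-241533 on the minus strand for NTH2. Capitals mark matches on either strand to 3 motifs, which do not overlap each other here. The first is the stress response element bound by Msn2 and Msn4, AGGGG. Another is the core of the site bound by Gcn4, which is TGACTC. The last is a form of the TATA box, TATAAA.
TSL1: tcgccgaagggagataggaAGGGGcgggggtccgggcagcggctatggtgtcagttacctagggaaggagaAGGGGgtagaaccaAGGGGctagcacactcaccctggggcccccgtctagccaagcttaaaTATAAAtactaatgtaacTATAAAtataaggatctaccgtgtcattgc
TPS1: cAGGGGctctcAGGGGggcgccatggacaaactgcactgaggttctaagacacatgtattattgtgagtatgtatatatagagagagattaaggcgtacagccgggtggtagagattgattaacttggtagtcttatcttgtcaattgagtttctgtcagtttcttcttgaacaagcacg
NTH2: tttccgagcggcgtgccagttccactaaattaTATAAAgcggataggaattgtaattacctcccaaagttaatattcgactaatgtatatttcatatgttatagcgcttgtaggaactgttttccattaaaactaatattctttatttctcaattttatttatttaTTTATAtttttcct
The TSL1 run holds AGGGG with its first base at −231, −179 and −165, and TATAAA at −118 and −100. The TPS1 run holds AGGGG at −249 and −239 and neither other motif. The NTH2 run holds TATAAA at −218 and its reverse complement at −84, and no AGGGG. In a window of 250 bases before to 50 after the start codon, AGGGG was present on either strand in 4 of the 7 genes (TPS1, TPS3, TSL1 and NTH1) and in 21.6% of 6001 protein-coding genes. TATAAA was present in 5 of 7 (all but TPS1 and TPS2) and in 45.2% of all. TGACTC was present in 1 of 7 (NTH1, within the coding bases) and in 8% of all. In the 500 bases before the start codon, a window added after the first was seen, AGGGG was present in 6 of 7 (all but NTH2) and in 34.1% of 6000 genes, TATAAA in 6 (all but TPS2) and in 60.5%, and TGACTC in 1 (ATH1) and in 12.7%. For TPS1 the longer window adds AGGGG at −472, −359 and −278, its reverse complement at −305, and a reverse complement of TATAAA at −365. Positions count the A of the start codon as 0. A match describes letters in a window and is not a binding site.

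The order of levels per kb differed between groups. In spt3∆ TPS1 (7944 ± 780, SD, n = 3) lay above TSL1 (7118 ± 1169) in all 3 libraries, though the ranges overlapped. NTH1, TPS3 and TPS2 followed at 4842, 4815 and 4697 and did not differ beyond their spread, and NTH2 (1932) lay above ATH1 (1715) with overlap. In spt8∆ the order was TSL1, TPS1, TPS2, TPS3, NTH1, ATH1 and NTH2, with overlap between TPS2 and TPS3 and between ATH1 and NTH2. In gcn5∆ TSL1 was first at 10972 ± 2890, and TPS3 (4378), TPS1 (4075) and TPS2 (4025) overlapped each other. In WT with SM the order was that of spt8∆, with means from 20996 ± 2245 for TSL1 to 2228 ± 343 for NTH2, and the one pair of neighbours that overlapped was TPS3 and NTH1. WT without SM had the same order with no overlap between neighbours.

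**Figure D1:**
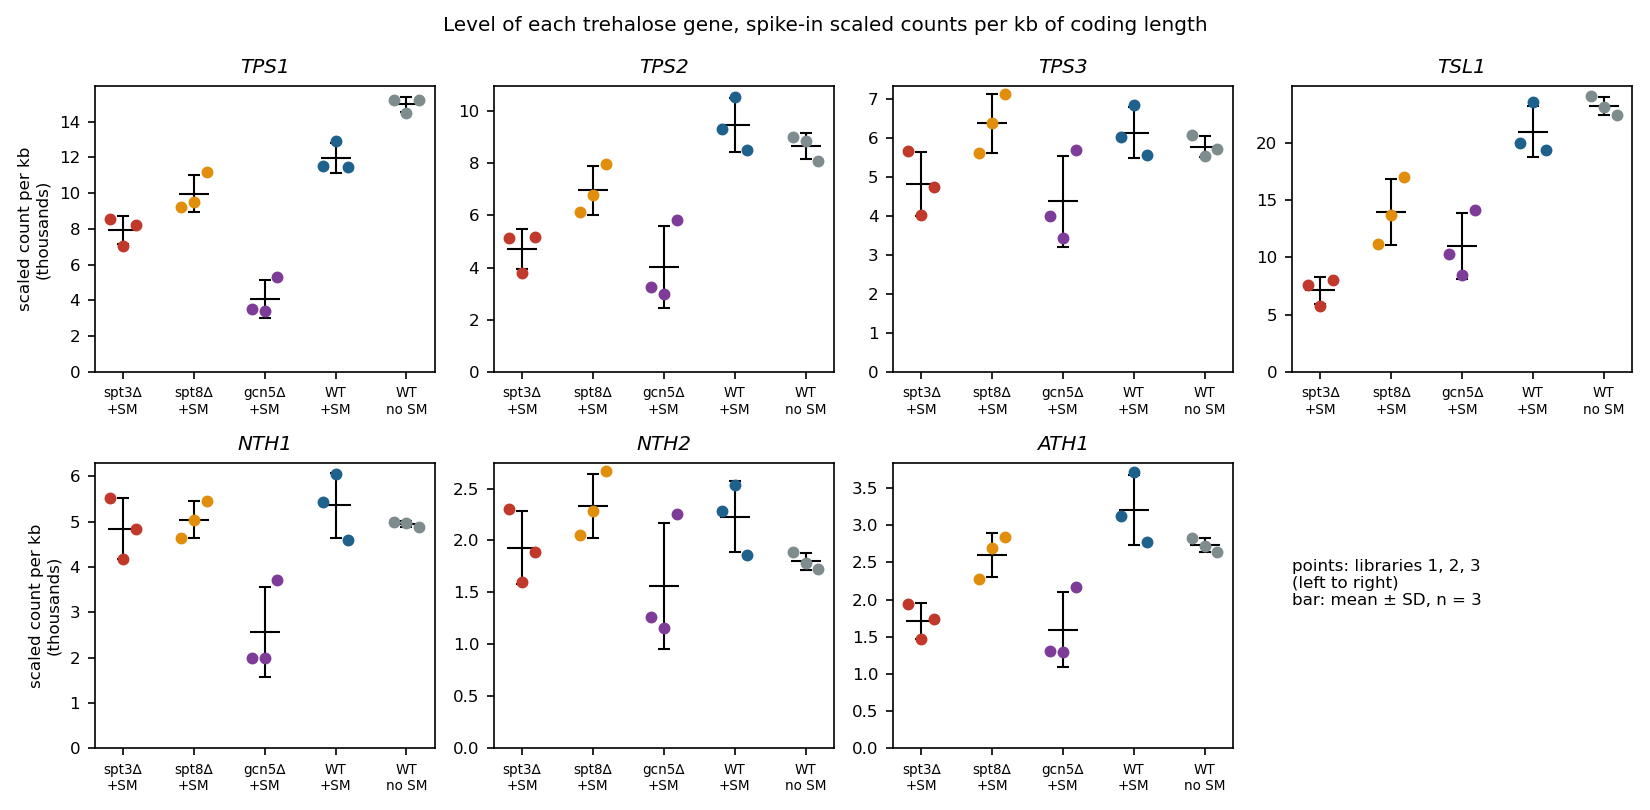
Spike-in scaled counts per kb of coding length (y axis, from 0) of each gene in the 5 groups (x axis); points are libraries and bars the mean ± SD, n = 3. TSL1 is lowest in spt3∆ and TPS1 in gcn5∆, and library 3 of gcn5∆ (right point) is the highest of its group for all 7 genes.

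The synthase complex genes TSL1, TPS2 and TPS1 and the acid trehalase gene ATH1 were lower in the spt3∆ libraries than in WT with SM. Of the 7 genes 4 fell and 0 rose in spt3∆ against WT, both with SM, while over all 6562 features tested 14% fell and 21.7% rose (edgeR quasi-likelihood test, Benjamini-Hochberg adjusted p under 0.05). The median of the 7 log2 fold changes was −0.59, beside 0.11 over all features. With TMM 7 of 7 fell, where 31.4% of all features fell and 33.9% rose, and the median was −0.68 beside 0.01.

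TSL1, one of the related regulatory subunits, had 7559, 5793 and 8002 scaled counts per kb in the 3 spt3∆ libraries, against 19999.7, 23566 and 19420.3 in WT with SM. The highest spt3∆ library lay below the lowest WT library. The log2 fold change was −1.56 (SE 0.18, edgeR adjusted p = 5.2e-09), the largest in size among the 7 in this comparison. TPS3, the other regulatory subunit gene, had 5672, 4023 and 4748 scaled counts per kb in spt3∆, against 6022, 6845 and 5563 in WT with SM. These groups overlapped, and its change of −0.35 (95% interval −0.71 to 0.01, edgeR adjusted p = 0.124) did not pass; without library 1 of spt3∆ it did, at −0.49 (edgeR adjusted p = 0.0439), as it did with TMM at −0.45 (edgeR adjusted p = 6.92e-05).

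The catalytic genes had smaller fold changes than TSL1. TPS2, the phosphatase gene, had 5131, 3808 and 5152 scaled counts per kb in spt3∆, against 9330.3, 10558 and 8514 in WT with SM. All spt3∆ libraries lay below all WT libraries, with a log2 fold change of −1.01 (SE 0.20, edgeR adjusted p = 8.39e-05). TPS1, the synthase gene, had 8553, 7065 and 8214 scaled counts per kb in spt3∆, against 11503, 12925 and 11471 in WT with SM. These groups too were separate, at −0.59 (SE 0.17, edgeR adjusted p = 0.00745).

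Among the trehalase genes only ATH1 fell with spike-in scaling. It had 1944, 1467 and 1734 scaled counts per kb in spt3∆, against 3125, 3712 and 2777 in WT with SM, a log2 fold change of −0.90 (SE 0.19, edgeR adjusted p = 0.000311). NTH1 had 5515, 4166 and 4845 in spt3∆, against 5427, 6039 and 4603 in WT with SM, and NTH2 2305, 1599 and 1890.5 against 2288, 2537 and 1858. Both overlapped WT, at −0.15 (95% interval −0.54 to 0.25) for NTH1 and −0.21 (−0.62 to 0.21) for NTH2 on the log2 scale. With TMM both passed, at −0.24 (edgeR adjusted p = 0.02) and −0.30 (edgeR adjusted p = 0.0126).

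**Figure D2:**
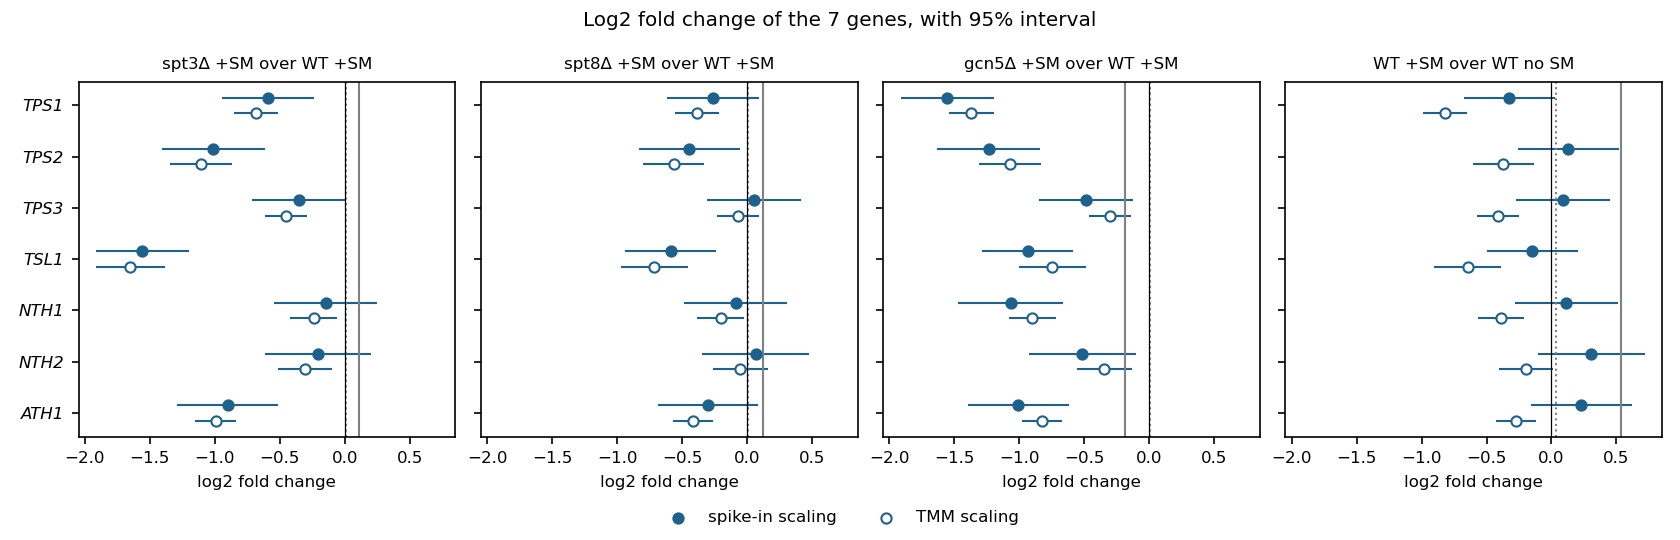
Log2 fold change (x axis) of the 7 genes (rows) in each deletion strain over WT, all with SM, and in WT with SM over WT without; filled points are spike-in scaling, open points TMM, and bars 95% intervals. Grey lines mark the median of all features, solid for spike-in scaling and dotted for TMM; TSL1 lies farthest left in spt3∆ at −1.56 and TPS1 in gcn5∆ at −1.55.

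In the spt8∆ strain TSL1 alone passed. Of the 7 genes 1 fell and 0 rose, where 5.58% of all features fell and 6.57% rose. TSL1 had 11206, 13674 and 17029 scaled counts per kb in spt8∆, against 19999.7, 23566 and 19420.3 in WT with SM. The groups did not overlap, at −0.59 on the log2 scale (SE 0.17, edgeR adjusted p = 0.02). The call ended without spt8∆ library 1 or 2 or WT library 2, at −0.45, −0.57 and −0.50 (edgeR adjusted p = 0.157, 0.0945 and 0.101).

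The other 6 genes gave −0.44 to 0.07. TPS2 had 6131, 6767 and 7987 scaled counts per kb in spt8∆, against 9330.3, 10558 and 8514 in WT with SM, which do not overlap. TPS1 had 9238, 9497 and 11177 in spt8∆, against 11503, 12925 and 11471 in WT with SM, which do not overlap either. How many of all features separate in this way was not counted, so these gaps have no background to be read against. TPS2 was at −0.44 (95% interval −0.84 to −0.05, edgeR adjusted p = 0.13), ATH1 at −0.30 (−0.69 to 0.09) and TPS1 at −0.26 (−0.62 to 0.09). The median of all 7 was −0.26, beside 0.13 for all features. With TMM 4 of 7 fell, where 21.1% of all features fell and 23.9% rose: TSL1 at −0.71, TPS2 at −0.56, ATH1 at −0.42 and TPS1 at −0.39. NTH1, NTH2 and TPS3 did not pass under either scaling, and the sign for TPS3 and NTH2 turns from 0.06 and 0.07 with spike-ins to −0.07 and −0.05 with TMM.

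All 7 genes fell in gcn5∆, with TPS1 first. The background was high here, at 30.4% of all features lower and 10.5% higher, and 33.4% and 34.2% with TMM, where again 7 of 7 fell. The median of the 7 was −1.01, beside −0.19 for all features, or −0.83 beside 0.01 with TMM. All 7 also fell without library 3 of gcn5∆, where 52.3% of all features fell and 7.53% rose by spike-ins, and 33.9% and 32.9% with TMM. Fitted with the 2 groups only, TPS3 and NTH2 missed the threshold (edgeR adjusted p = 0.0727 and 0.122).

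TPS1 had 3510.3, 3414 and 5300.02 scaled counts per kb in gcn5∆, against 11503, 12925 and 11471 in WT with SM. The highest gcn5∆ library lay far below the lowest WT library. The log2 fold change was −1.55 (SE 0.18, edgeR adjusted p = 7.79e-09), and −1.79 without gcn5∆ library 3. TPS2 had 3251, 2998 and 5826 in gcn5∆, against 9330.3, 10558 and 8514 in WT with SM, and fell by 1.23 (SE 0.20, edgeR adjusted p = 3.73e-06).

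The regulatory subunit genes had smaller fold changes than TPS1. TSL1 had 10314, 8468 and 14134 scaled counts per kb in gcn5∆, against 19999.7, 23566 and 19420.3 in WT with SM, a log2 fold change of −0.94 (SE 0.17, edgeR adjusted p = 4e-05). TPS3 had 4012, 3437 and 5686 in gcn5∆, against 6022, 6845 and 5563 in WT with SM. Its library 3 overlapped WT, and the change of −0.49 (edgeR adjusted p = 0.0273) was no longer called without gcn5∆ library 1 or 2 or WT library 1 or 2, at −0.34 to −0.50 (edgeR adjusted p from 0.0572 to 0.169).

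NTH1 had 1982, 1984 and 3702 scaled counts per kb in gcn5∆, against 5427, 6039 and 4603 in WT with SM. All 3 libraries lay below WT, at −1.07 (SE 0.20, edgeR adjusted p = 3.98e-05). ATH1 had 1308, 1301 and 2174 in gcn5∆, against 3125, 3712 and 2777 in WT with SM, at −1.01 (SE 0.19, edgeR adjusted p = 5.99e-05). NTH2 had 1265, 1154 and 2257 in gcn5∆, against 2288, 2537 and 1858 in WT with SM. It overlapped WT through library 3, and its call at −0.52 (edgeR adjusted p = 0.0402) ended without gcn5∆ library 1 or 2 or WT library 1 or 2, at −0.34 to −0.50 (edgeR adjusted p from 0.0936 to 0.224). Without gcn5∆ library 3 it was −0.88 (edgeR adjusted p = 1.34e-06).

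Set directly against each other, the strains lacking Spt3 and Gcn5 differed in opposite directions for 3 genes. Relative to gcn5∆, spt3∆ had more TPS1 (0.96, SE 0.18, edgeR adjusted p = 2.75e-05) and more NTH1 (0.92, SE 0.20, edgeR adjusted p = 0.000242), and less TSL1 (−0.62, SE 0.17, edgeR adjusted p = 0.00334). These 2 higher and 1 lower genes stand beside 37.3% of all features higher and 9.72% lower, and the same 3 calls were made with TMM, at 0.69, 0.66 and −0.90, where 33.6% were higher and 30.6% lower. Fitted with these 2 groups only, TSL1 missed the threshold (edgeR adjusted p = 0.0592). TPS2 (0.22), TPS3 (0.14), NTH2 (0.31) and ATH1 (0.10) did not pass, with 95% intervals that reach from −0.28 to 0.72 between them. Without gcn5∆ library 3 these 4 also passed as higher, at 0.37 to 0.67, so 6 of 7 were higher and 1 lower, where 64.3% of all features were higher and 8.79% lower, though with TMM and without that library TPS3 and ATH1 turned to −0.13 and −0.10.

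Between spt8∆ and gcn5∆, 6 of 7 genes were higher in spt8∆, where 37.1% of all features were higher and 7.76% lower, and again 6 of 7 with TMM, where 31.1% were higher and 31.3% lower. TPS1 differed most (1.29, SE 0.18, edgeR adjusted p = 2.94e-07), then NTH1 (0.98), TPS2 (0.79), ATH1 (0.71), NTH2 (0.58) and TPS3 (0.54). With TMM the same 6 genes had smaller differences, at 0.98 for TPS1, 0.70 for NTH1, 0.51 for TPS2, 0.41 for ATH1, 0.30 for NTH2 and 0.23 for TPS3. TSL1 did not pass (0.35, SE 0.17, edgeR adjusted p = 0.0974, and 0.03 with TMM); by spike-ins without gcn5∆ library 3 or spt8∆ library 1 it did, at 0.57 and 0.48 (edgeR adjusted p = 0.00129 and 0.0367). The calls for NTH2 and TPS3 ended without gcn5∆ library 1 or 2 or spt8∆ library 3, at 0.40 to 0.48.

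Between spt3∆ and spt8∆, TSL1 alone passed, at −0.97 (SE 0.17, edgeR adjusted p = 0.000577). It is 1 of 7 lower, where 2.39% of all features were lower and 1.1% higher. ATH1 (−0.60, 95% interval −0.99 to −0.21, edgeR adjusted p = 0.0708) and TPS2 (−0.57, −0.96 to −0.18, edgeR adjusted p = 0.0996) missed the threshold, and NTH1 was at −0.06 (−0.46 to 0.34). With TMM 5 of 7 were lower in spt3∆, where 14.3% of all features were lower and 16.9% higher: TSL1 (−0.94), ATH1 (−0.58), TPS2 (−0.54), TPS3 (−0.39) and TPS1 (−0.30).

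**Figure D3:**
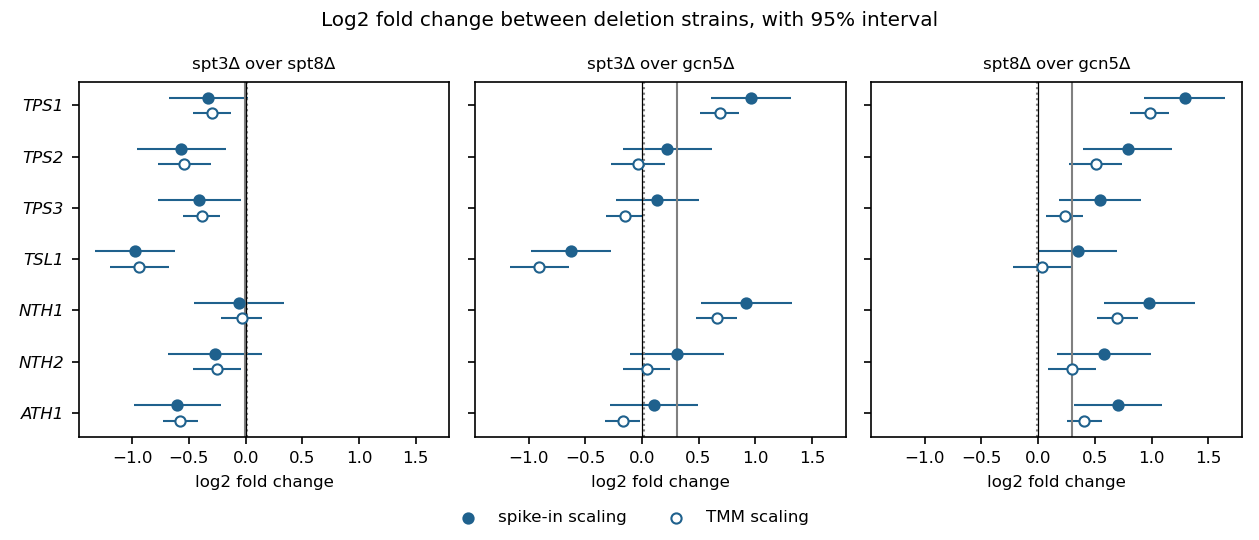
Log2 fold change (x axis) of the 7 genes (rows) between deletion strains with SM; filled points are spike-in scaling, open points TMM, bars 95% intervals, and grey lines the median of all features (solid for spike-in scaling, dotted for TMM). In spt3∆ over gcn5∆, TPS1 and NTH1 lie to the right at 0.96 and 0.92 and TSL1 to the left at −0.62.

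Ratios between 2 genes of the same library need no scaling factor. How often ratios of other gene pairs separate these groups was not counted. A lack of overlap in any ratio below therefore has no background and cannot be read against one. TSL1 over TPS3, the balance of the regulatory subunits, was 1.33 to 1.69 per kb in spt3∆, 1.99 to 2.38 in spt8∆ and 2.46 to 2.57 in gcn5∆, against 3.32 to 3.49 in WT with SM. No deletion strain overlapped WT. As log2 differences from WT these are −1.21 in spt3∆, −0.66 in spt8∆ and −0.45 in gcn5∆ (exact two-sided permutation p = 0.1 each, the smallest that 3 against 3 allows, and 0.109 adjusted over 12 ratio tests). WT without SM was higher still, at 3.92 to 4.18, a log2 difference of −0.23 for WT with SM against without (exact permutation p = 0.1).

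TPS1 over NTH1, the synthase set against the main neutral trehalase, was 1.55 to 1.7 per kb in spt3∆, 1.89 to 2.05 in spt8∆ and 1.43 to 1.77 in gcn5∆, against 2.12 to 2.49 in WT with SM. Every deletion library lay below every WT library with SM, by mean log2 differences of −0.45, −0.18 and −0.46 (exact permutation p = 0.1 each). WT with SM in turn lay below WT without SM, at 2.92 to 3.12 (log2 difference −0.43, exact permutation p = 0.1). NTH2 over NTH1, the balance of the neutral trehalases, was 0.582 to 0.638 in gcn5∆, against 0.404 to 0.422 in WT with SM, a log2 difference of 0.55 (exact permutation p = 0.1). In spt8∆ it was 0.441 to 0.488 (log2 difference 0.15, exact permutation p = 0.1). In spt3∆ it was 0.384 to 0.418, overlapping WT (log2 difference −0.06, exact permutation p = 0.2). TSL1 over TPS1, a ratio chosen after its values were seen and not tested, was 0.82 to 0.974 in spt3∆, 1.21 to 1.52 in spt8∆ and 2.48 to 2.94 in gcn5∆, against 1.69 to 1.82 in WT with SM.

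**Figure D4:**
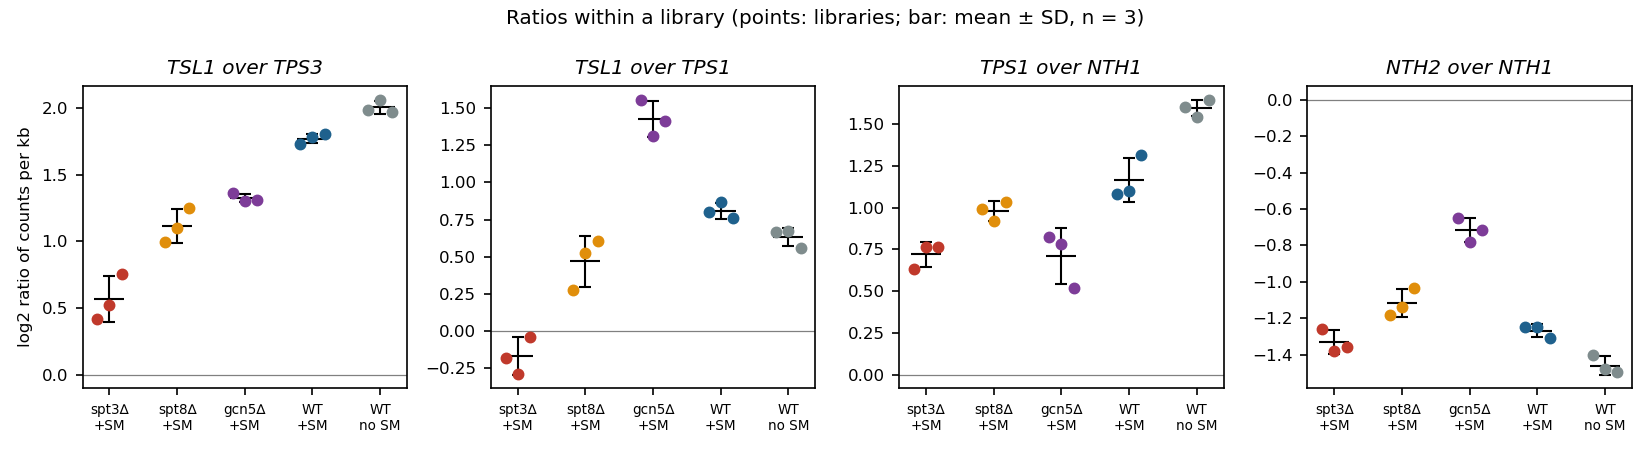
Log2 ratio of counts per kb (y axis) of gene pairs within each library in the 5 groups (x axis); points are libraries, bars the mean ± SD, n = 3. TSL1 over TPS1 lies below WT with SM in spt3∆ (mean −0.17) and above it in gcn5∆ (mean 1.43, against 0.81 in WT with SM).

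The make-up of each family is given as shares, which sum to a whole and so are not independent of each other. TSL1 held 28.9% ± 1.5 of the summed counts per kb of the 4 synthase complex genes in spt3∆, 37.2% ± 2.28 in spt8∆ and 46.9% ± 1.73 in gcn5∆, against 43.2% ± 0.52 in WT with SM (SD, n = 3). TPS1 held 32.5% ± 1.47 in spt3∆, 26.9% ± 1.58 in spt8∆ and 17.5% ± 1.04 in gcn5∆, against 24.7% ± 0.77 in WT with SM. The mean TPS2 share lay between those of WT with SM (19.5%) and WT without SM (16.4%) in every deletion strain. NTH1 held 57.1% ± 0.57 of the trehalase sum in spt3∆ and 44.6% ± 1.01 in gcn5∆, against 49.7% ± 0.48 in WT with SM, and ATH1 20.2% ± 0.29 in spt3∆, against 29.7% ± 0.76.

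**Figure D5:**
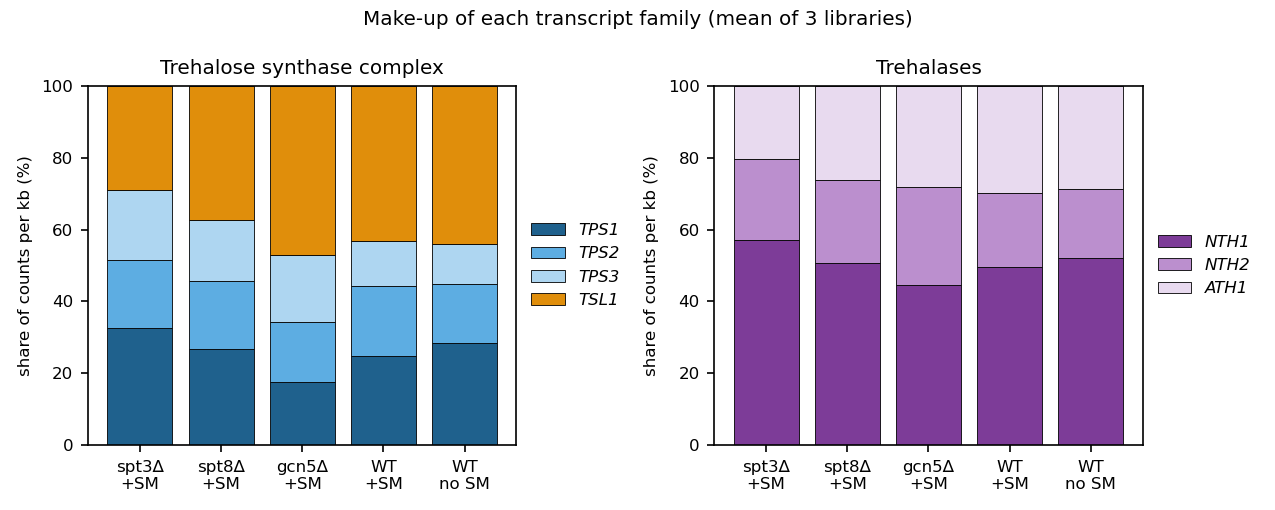
Mean share (y axis, percent of the summed counts per kb, 3 libraries each) of each subunit gene among the 4 synthase complex genes (left) and of each gene among the 3 trehalases (right), by group. The TPS1 share is 32.5% in spt3∆ and 17.5% in gcn5∆.

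For SM itself no change passed relative to the spike-ins, while 6 of the 7 genes fell relative to other genes. In WT with SM against WT without, 0 of 7 passed in either direction (edgeR, also 0 at an unadjusted p under 0.05, and 0 by DESeq2), while 55.6% of all features rose and 7.57% fell. The median feature rose by 0.54 on the log2 scale, and all 7 genes lay below it, from −0.32 for TPS1 to 0.31 for NTH2. With TMM, which removes that shift, 6 of 7 fell where 37.3% of all features fell and 41.3% rose: TPS1 by 0.82 (SE 0.08, edgeR adjusted p = 7.26e-08), TSL1 by 0.65, TPS3 by 0.41, NTH1 by 0.39, TPS2 by 0.37 and ATH1 by 0.27. The TMM value for NTH2 was −0.20 (edgeR adjusted p = 0.0774).

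TPS1 was the one gene whose libraries with and without SM did not overlap with spike-in scaling. It had 11503, 12925 and 11471 scaled counts per kb with SM, against 15209, 14507 and 15208 without (log2 fold change −0.32, 95% interval −0.68 to 0.03, edgeR adjusted p = 0.103). The share of all features whose libraries with and without SM did not overlap was not counted. The lack of overlap for TPS1 therefore has no background and cannot be read against one. Fitted with these 2 groups only, TPS1 passed as lower (edgeR adjusted p = 0.00199), and NTH2 at 0.31 and ATH1 at 0.23 as higher (edgeR adjusted p = 0.0177 and 0.0486), a direction that turns with TMM (−0.20 and −0.27). TSL1 had 19999.7, 23566 and 19420.3 with SM, against 24079.8, 23179.8 and 22451 without, which overlap.

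The wider pathway was read from 22 further genes on fixed lists, of which 13 fell and 0 rose in spt3∆, 9 fell and 0 rose in spt8∆ and 13 fell and 0 rose in gcn5∆, each against WT with SM; with SM in WT 7 fell and 1 rose. Over all features 14%, 5.58% and 30.4% fell in these strains and 7.57% with SM. In the same order 21.7%, 6.57%, 10.5% and 55.6% of all features rose, or 33.9%, 23.9%, 34.2% and 41.3% with TMM. With TMM 16 fell and 2 rose in spt3∆, 14 fell and 1 rose in spt8∆, 13 fell and 1 rose in gcn5∆, and 17 fell and 1 rose with SM, where 31.4%, 21.1%, 33.4% and 37.3% of all features fell. Without gcn5∆ library 3, 21 of 22 fell in gcn5∆ by spike-ins, where 52.3% of all features fell, and 14 with TMM, where 33.9% fell.

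Among 6 genes that supply glucose 6-phosphate and UDP-glucose, 4 fell in each deletion strain. Of all features 14% fell in spt3∆, 5.58% in spt8∆ and 30.4% in gcn5∆. HXK1 (hexokinase 1) had log2 fold changes of −3.87 in spt3∆, −2.56 in spt8∆ and −1.41 in gcn5∆, and PGM2 (the major phosphoglucomutase) of −2.28, −1.34 and −1.58 in the same strains. GLK1 (glucokinase) stood at −2.04, −1.24 and −1.30, and UGP1, which makes UDP-glucose, at −0.98, −0.53 and −1.19. HXK2, the hexokinase of glucose-grown cells, and PGM1, the minor phosphoglucomutase, were not called in a deletion strain by spike-ins; with TMM HXK2 rose in gcn5∆ (0.50), and PGM1 in spt3∆ (0.15) and spt8∆ (0.16). With SM in WT HXK1 (−1.34), HXK2 (−1.28) and PGM2 (−1.12) fell. With TMM all 6 supply genes fell with SM, where 37.3% of all features fell.

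MAL11 (AGT1), an alpha-glucoside transporter that takes up trehalose, was the gene of the 22 that rose with SM in WT. It had 525 ± 88.6 scaled counts per kb in WT with SM and 136 ± 21.9 in WT without (log2 fold change 1.95, edgeR adjusted p = 1.59e-10). In the strains with SM it had 124 ± 13.1 in spt3∆, 238 ± 24.5 in spt8∆ and 203 ± 66.7 in gcn5∆. Against WT with SM the log2 fold changes were −2.08, −1.14 and −1.38 (edgeR adjusted p = 2.74e-10, 7.25e-05 and 1.04e-06).

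Of 4 regulators of neutral trehalase, DCS2 had log2 fold changes of −2.25 in spt3∆, −1.17 in spt8∆ and −1.62 in gcn5∆. Its paralog DCS1, a scavenger decapping enzyme, fell in spt3∆ (−0.72), and BMH1, a 14-3-3 protein of the kind that binds and activates phosphorylated Nth1, fell in gcn5∆ (−0.54). With SM in WT the other 14-3-3 gene, BMH2, fell (−0.92), and with TMM all 4 regulators fell, where 37.3% of all features fell. Of the genes of protein kinase A, which phosphorylates Nth1, TPK2 fell in spt3∆ (−0.78), and BCY1 (−0.70) and TPK2 (−0.55) fell in gcn5∆. In spt8∆ neither passed by spike-ins, and TPK2 (−0.25) and BCY1 (−0.19) did with TMM. BCY1, the regulatory subunit, also fell with SM in WT (−0.62).

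Msn2 and Msn4 bind the AGGGG element, and their genes were on a list of 4 stress regulators. MSN4 fell in spt3∆ (−1.17) and spt8∆ (−0.90), and was not called in gcn5∆, at −0.08 by spike-ins and 0.10 with TMM. Its direct difference between spt3∆ and gcn5∆ was −1.09 (edgeR adjusted p = 4.06e-05). MSN2 and RIM15, a kinase of nutrient-starved cells, were not called in any comparison by spike-ins, and GIS1, a zinc finger regulator of such cells, fell in spt3∆ (−0.86) and gcn5∆ (−0.78). With TMM 3 of the 4 stress regulators fell in spt3∆, 2 in spt8∆, 1 in gcn5∆ and 2 with SM in WT. Over all features 31.4%, 21.1%, 33.4% and 37.3% fell with TMM. Of 3 stress marker genes, HSP12 had log2 fold changes of −2.61 in spt3∆, −2.45 in spt8∆ and −0.58 in gcn5∆, the last of them not called with TMM (−0.38, edgeR adjusted p = 0.0863). The catalase gene CTT1 fell in all 3 strains (−1.60, −1.16 and −0.96) and with SM in WT (−0.47). HSP104, a disaggregase, was called in no deletion strain by spike-ins, fell in spt3∆ (−0.30) and gcn5∆ (−0.23) with TMM, and fell with SM in WT (−0.92). With TMM all 3 markers fell with SM, where 37.3% of all features fell.

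Likeness of pattern was described by Pearson's r of log2 CPM (TMM factors) over the 15 libraries, which fall into 5 groups, among 5386 other named genes with a mean CPM of at least 10. No p is given, since libraries of a group share their condition. ATH1 was the gene most like TPS2 (r = 0.990), followed by TFS1 and YGP1, and TPS2 came after XKS1 and FMP33 for ATH1. NTH2 had PSK1, DUF1 and TPS2 (r = 0.939, 0.929 and 0.917, the last of these 0.704 with spike-in scaling), and TPS3 had PSK1, SDH2 and USB1 (r = 0.963 for SDH2 and USB1). TSL1 had COQ6, RGI1 and SDH2 (r = 0.989, 0.988 and 0.988), TPS1 had YCP4, RPL6A and SNC1 (0.992, 0.989 and 0.989), and NTH1 had ZTA1, UBX3 and YNL208W (0.989, 0.982 and 0.979). TPS1 ranked 20 for NTH1, NTH2 ranked 333 for its paralog NTH1 (r = 0.858), and NTH1 ranked 1228 for TSL1 (r = 0.603).

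The 7 genes lie apart in the genome, and no other feature of the table overlaps them. In the R64 assembly (sacCer3) TPS1 (YBR126C) is at chrII:488905-490392 and NTH2 (YBR001C) at chrII:238941-241283, both on the minus strand. TPS2 (YDR074W) is at chrIV:593893-596583 on the plus strand and NTH1 (YDR001C) at chrIV:450220-452475 on the minus strand. TSL1 (YML100W) is at chrXIII:70624-73920 on the plus strand, TPS3 (YMR261C) at chrXIII:790205-793369 on the minus strand and ATH1 (YPR026W) at chrXVI:615379-619014 on the plus strand. Each row is a single coding interval. The coding sequences of NTH1 and NTH2 are identical at 72.4% of 2245 aligned bases, with a longest shared run of 33 bases, and those of TSL1 and TPS3 at 67.2% of 3080, with a longest shared run of 15. No pair of the 7 shares a window of 50 bases, which bears on whether reads could be split between paralogs.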

How the data were processed

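The authors deposited a table of fragment counts per feature for 15 libraries, with no pooling and no normalization. Per the submitters' processing notes the sacCer3 genome, STAR, SAMtools and DESeq2 were used, without versions; the sources used here give neither the counting program nor its strand and multi-mapping settings. Per the labels' protocols, a stranded kit with rRNA depletion and paired-end sequencing was used. Of 6692 yeast features 6008 match RefSeq R64 identifiers, 6000 at the same coordinates, so R64 sequence was read at the table's coordinates. All spike-in values are even (100%, against 50.5% of yeast values), which applies to every library alike.

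Size factors were medians of ratios over the 74 of 92 spike-ins counted in every library (0.819 to 1.28). edgeR 4.0.16 (R 4.3.3, limma 3.58.1) fitted all 5 groups to features kept by filterByExpr, 6562 in all, with quasi-likelihood tests and Benjamini-Hochberg adjustment over all of them, calls at 0.05. SE is the log2 fold change over the square root of its F. Alternatives were TMM, DESeq2 1.42.0, other scalings and filters, a replicate block and libraries left out. The common coefficient of variation was 16.1% with spike-ins and 7.86% with TMM. Motifs and alignments used Biopython 1.88, ratios scipy 1.17.1 and tables and figures Python 3.11.15, pandas 2.3.3, numpy 2.4.6 and matplotlib 3.10.9. The fit was tested on simulated data with known size factors and a spread estimated with TMM. Error in the spike-in factors was therefore not part of that test.

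The 7 genes are all named in each comparison; further genes are the called ones of largest change on fixed pathway lists, up to 3 per list and comparison, and the 3 genes most like each of the 7; UGP1 and the pathway genes named as not called were added after their values were seen. The genes and lists were chosen with earlier results of these data known. Values of 1 gene on the pathway lists are not reported here.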

Additional observations from a re-analysis of the deposited data

How the results depend on the processing

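Of 49 results (7 genes in 7 comparisons), refitting without 1 library gave 294 values, of which 260 kept direction and side of the threshold, 17 lost and 7 gained a call and 10 changed sign. Other settings gave 413 values, of which 327 kept both, 5 lost and 46 gained a call and 35 changed sign. The scaling sets most of these, and the cause of the others was not tested.

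With TMM the genes lower were 6 (SM in WT), 7 (spt3∆), 4 (spt8∆) and 5 (spt3∆ against spt8∆), and the same with a replicate block. With DESeq2 size factors over yeast features they were 7, 7, 5 and 6, and 2 in spt3∆ against gcn5∆. Fitted with 2 groups only, SM gave 2 higher and 1 lower, spt8∆ 2 lower, gcn5∆ 5 lower (without TPS3 and NTH2), spt3∆ against spt8∆ 3 lower, spt3∆ against gcn5∆ 0 lower and spt8∆ against gcn5∆ 5 higher (without NTH2, edgeR adjusted p = 0.0609). DESeq2's Wald test gave 2 lower in spt3∆ against spt8∆, and total ERCC scaling 1 lower with SM and 6 in gcn5∆ (without NTH2, −0.44, edgeR adjusted p = 0.0636). Without 1 library, genes lower in spt8∆ were 0 to 1 (0 without spt8∆ library 1 or 2 or WT library 2), and genes higher in spt3∆ against gcn5∆ 2 to 6 (6 without gcn5∆ library 3). Shares over all features are given above only for TMM without the block and for fits without gcn5∆ library 3. The other counts in this paragraph have no such background and cannot be read against one.

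Signs turned as follows, on the log2 scale with DESeq2 size factors, TMM and TMM with the block. For SM in WT TPS2 gave −0.46, −0.37 and −0.37, TPS3 −0.50, −0.41 and −0.41, NTH1 −0.47, −0.39 and −0.39, NTH2 −0.28, −0.20 and −0.19, and ATH1 −0.36, −0.27 and −0.27. For spt8∆ TPS3 gave −0.063, −0.066 and −0.069 and NTH2 −0.048, −0.051 and −0.058. For spt3∆ against gcn5∆ TPS2 gave −0.059, −0.034 and −0.032, TPS3 −0.18, −0.15 and −0.15, and ATH1 −0.20, −0.17 and −0.17; with TMM and no gcn5∆ library 3 TPS3 gave −0.13 and ATH1 −0.10. Total ERCC scaling gave −0.0060 for TPS2, −0.051 for TPS3 and −0.022 for NTH1 with SM. Without 1 library, values ran from −0.033 to 0.14 (TPS3), −0.18 to 0.0080 (NTH1) and −0.049 to 0.17 (NTH2) in spt8∆, −0.16 to 0.039 for NTH1 in spt3∆ against spt8∆, and −0.010 to 0.37 (TPS3) and −0.022 to 0.39 (ATH1) in spt3∆ against gcn5∆. By spike-ins with all 5 groups and all libraries, none of the results whose sign turned was called.

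Whether the replicate numbers pair the samples cannot be settled from these counts, since each deviation is from a mean of 3 libraries. Deviations of same-numbered libraries correlated at −0.38 to 0.24 (median −0.05, 7 of 30 pairs over 0.1). The library of the same number was the best partner in 11 of the 30. With a replicate block on spike-in scaling, none of the 49 calls changed.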
